A study of Mus musculus with 2 samples.

Results

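Obox6, Pdxk, Cux2, Col9a2 and Sgk3 are 5 of the 52366 genes measured in single mouse pseudoblastocysts. They were chosen by their measured counts, which were much higher in 1C and 8CB than in 2CB and 4CB embryos. These levels are therefore given as a description, without a test. Pseudoblastocysts have formed a cavity but were not examined for an inner cell mass (ICM), so that trophoblastic vesicles without an ICM may be among them. All embryos came from B6D2F1 oocytes fertilized in vitro with ICR sperm and were cultured up to 96 hours after insemination. The 6 1C embryos developed from whole zygotes whose zona pellucida had been removed. The others, also without a zona, developed from single blastomeres isolated at the 2-cell (2CB), 4-cell (4CB) or 8-cell (8CB) stage, with 6 embryos of each. No label says which embryos, if any, were sisters from the same parent, so that the spread between embryos may be partly that of shared parents. The 12 1C and 8CB embryos formed 1 library pool and the 12 2CB and 4CB embryos formed the other. Library pool and the comparison that selected the genes cannot be told apart.

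The 5 genes have unrelated textbook roles. Obox6 belongs to a rodent family of oocyte-specific homeobox genes, which encode DNA-binding regulators active in oocytes and cleavage-stage embryos. Pdxk encodes pyridoxal kinase, which phosphorylates vitamin B6 on the way to pyridoxal phosphate, the cofactor of many amino acid enzymes. Cux2 encodes a CUT-domain homeobox repressor best known from upper-layer cortical neurons. Col9a2 encodes a chain of type IX collagen, which decorates type II collagen fibrils in cartilage. Sgk3 encodes an endosomal serine/threonine kinase that is activated downstream of PI3K and is related to AKT.

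The genes lie on 5 chromosomes of GRCm38, at positions taken from the deposited table. Obox6 (ENSMUSG00000041583.8) spans chr7:15833241-15839678 on the minus strand, in 3 exon blocks of 1344 bases in all. Pdxk (ENSMUSG00000032788.15) spans chr10:78436744-78464975 on the minus strand, with 5397 exonic bases in 11 blocks. Cux2 (ENSMUSG00000042589.18) is the longest locus, with 30 exon blocks over chr5:121856366-122050102 on the minus strand. Col9a2 (ENSMUSG00000028626.5) has 31 exon blocks over chr4:121039385-121055322 on the plus strand. Sgk3 (ENSMUSG00000025915.14) has 20 exon blocks over chr1:9798107-9900845 on the plus strand. Stretches of 50 bases from their transcripts were searched for in all other GENCODE M21 genes. They occurred elsewhere for 5.02% of Obox6 stretches, all in the pseudogene Obox6-ps1, for 0.901% of Pdxk stretches (Pdxk-ps among the genes), 0.197% for Cux2 and 0.124% for Sgk3. No Col9a2 stretch of the 3089 occurred in another gene. These are shares of transcript stretches and not of reads, and how reads from shared stretches were counted was not examined.

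RefSeq promoter windows of 250 bases before the annotated start (GRCm38.p6) were found for 3 of the 5 genes, with 2 starts for Cux2. They are shown because these genes have high levels in the same embryos, and sequence that overlaps an annotated exon was left out. The lines run 5′ to 3′ on the strand of the gene, and capitals mark a match to 1 of 8 short motifs searched on both strands.
Pdxk, chr10:78464976-78465198, minus strand: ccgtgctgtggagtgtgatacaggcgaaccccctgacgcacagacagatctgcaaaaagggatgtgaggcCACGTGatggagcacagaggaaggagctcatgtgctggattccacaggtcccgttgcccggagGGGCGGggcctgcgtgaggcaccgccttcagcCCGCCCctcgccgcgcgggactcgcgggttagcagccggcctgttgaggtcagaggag
Cux2 inner start, chr5:122047892-122048075, minus strand: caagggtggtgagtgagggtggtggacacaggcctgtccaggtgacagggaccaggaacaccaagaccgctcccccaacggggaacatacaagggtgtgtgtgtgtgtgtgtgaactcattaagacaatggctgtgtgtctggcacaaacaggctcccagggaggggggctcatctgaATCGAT
Cux2 outer start, chr5:122049852-122050015, minus strand: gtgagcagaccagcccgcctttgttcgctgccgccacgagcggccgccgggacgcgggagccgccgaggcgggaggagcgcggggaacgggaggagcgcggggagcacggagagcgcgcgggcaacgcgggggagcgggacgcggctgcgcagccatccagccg
Col9a2, chr4:121039316-121039384, plus strand: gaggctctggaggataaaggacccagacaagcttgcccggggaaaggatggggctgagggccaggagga
In the Pdxk window the capitals mark an E-box (CACGTG) at base -180 and GC boxes (GGGCGG, also read as its reverse complement) at -117 and -85 from the start. Among all 32851 windows of the same length, 6.02% hold this E-box and 32.7% a GC box. The window at the inner Cux2 start ends, as printed, in ATCGAT at -72, a sequence of the type that CUX proteins are known to bind, which 0.728% of all windows hold. Its last base is also the first base of a TATA box (TATAAA) at -67, whose other bases lie in an exon and were left out. TATAAA is present in 12.4% of windows. The printed stretch at the outer Cux2 start lies between an upstream annotated Cux2 exon and the RefSeq start, and held none of the 8 motifs. The Col9a2 window had GC boxes at -26 and -14 only in its exonic part, which is not printed. No window held the CCAAT box, the OBOX and CRX type motif TAATCC, the NR5A2 type motif AAGGTCA or the TEAD type motif GGAATG, which occur in 33.8%, 6.25%, 4.08% and 12.6% of all windows. The GC box, in Pdxk and Col9a2, was the only motif found in more than 1 of the 3 genes. The windows were rich in G and C, at 66.4% for Pdxk, 80.0% and 55.2% for the outer and inner starts of Cux2 and 60.4% for Col9a2, against a median of 52.4% over all windows. The CpG counts were 21, 40, 3 and 9 in the same order, against a median of 6.0. A motif match is a description of the letters and not a binding site.

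Levels are unique molecular identifier (UMI) counts, given as UMIs per 1000000 UMIs of the embryo (CPM). In these counts fewer expressing cells and less RNA per cell cannot be told apart. Obox6 was at 113 CPM in the lowest 1C embryo, 327 at the median and 621 in the highest. In 8CB embryos the lowest, median and highest values were 69.9, 382 and 612 CPM. In 2CB embryos they were 0, 3.16 and 5.21 CPM, and in 4CB embryos 0, 0.442 and 6.38 CPM. Every 1C and 8CB embryo was thus above every 2CB and 4CB embryo, and the mean levels differed 143-fold. The counts behind the low side were very small: 14 UMIs over the 12 2CB and 4CB embryos, with 4 of these embryos at 0, against 1145 UMIs over the 1C and 8CB embryos. Of all Obox6 UMIs, 1.21% were in the 2CB and 4CB pool (exact 95% binomial interval 0.662% to 2.02%, counting error only), although that pool held 6658255 UMIs in total and the other 2952530.

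Pdxk had the smallest coefficient of variation of the members in 1C, 8CB and 2CB embryos. It ranged from 469 to 738 CPM in 1C embryos (median 652) and from 296 to 1167 CPM in 8CB embryos (median 688). It ranged from 18.2 to 53.3 CPM in 2CB (median 32.7) and from 15.9 to 82.9 CPM in 4CB (median 42.7). The ranges of the pools did not overlap, whereas stages of the same pool did, and no embryo was at 0. The coefficient of variation was 15.4% among 1C, 40.9% among 8CB and 38.5% among 2CB embryos. The mean was 681 ± 214 CPM (SD, n = 12) in the higher pool and 38.2 ± 19.4 CPM (SD, n = 12) in the lower, a ratio of 17.8.

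Cux2 ranged from 81.7 to 353 CPM in 1C embryos (median 193) and from 61.7 to 162 CPM in 8CB embryos (median 104). In 2CB it ranged from 0 to 18.0 CPM (median 8.20) and in 4CB from 0 to 25.5 CPM (median 4.98), with 3 of these 12 embryos at 0. The ranges of the pools did not overlap, and the means of 153 ± 84.4 and 8.09 ± 8.17 CPM (SD, n = 12 each) differed 18.9-fold.

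Col9a2 ranged from 32.4 to 369 CPM in 1C embryos (median 189) and from 88.4 to 270 CPM in 8CB embryos (median 149). In 2CB the median was 0.774 CPM and the highest embryo 21.9 CPM, and in 4CB the median was 0.442 CPM and the highest embryo 21.7 CPM. No 2CB or 4CB embryo reached the lowest 1C embryo, and 6 of the 12 were at 0. Of its 56 UMIs on the low side, 33 came from 2CB embryo 2 and 14 from 2CB embryo 5, which were deeply sequenced (1507471 and 1045282 UMIs in total). Per total UMIs, 2CB embryo 2 at 21.9 CPM and 4CB embryo 1 at 21.7 CPM, from 6 UMIs, were alike. The ratio of the mean levels was 33.1.

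Sgk3 differed from the other members, and "far higher" fits it less well. It ranged from 72.8 to 208 CPM in 1C embryos (median 159) and from 14.1 to 107 CPM in 8CB embryos (median 72.1). It ranged from 3.10 to 57.1 CPM in 2CB (median 39.7) and from 12.8 to 65.9 CPM in 4CB (median 35.8). The pools overlapped: 10 of 12 2CB and 4CB embryos were at or above the lowest 1C or 8CB embryo, 8CB embryo 6, in which Sgk3 had 1 UMI. Without that embryo the lowest was at 59.7 CPM and 1 of the 12, 4CB embryo 6, was above it. The mean level was 107 ± 55.9 CPM in the higher pool and 36.4 ± 19.0 CPM in the lower (SD, n = 12 each), a ratio of 2.93. Of its UMIs, 37.6% (33.5% to 41.8%) were in the 2CB and 4CB pool.

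**Figure D1:**
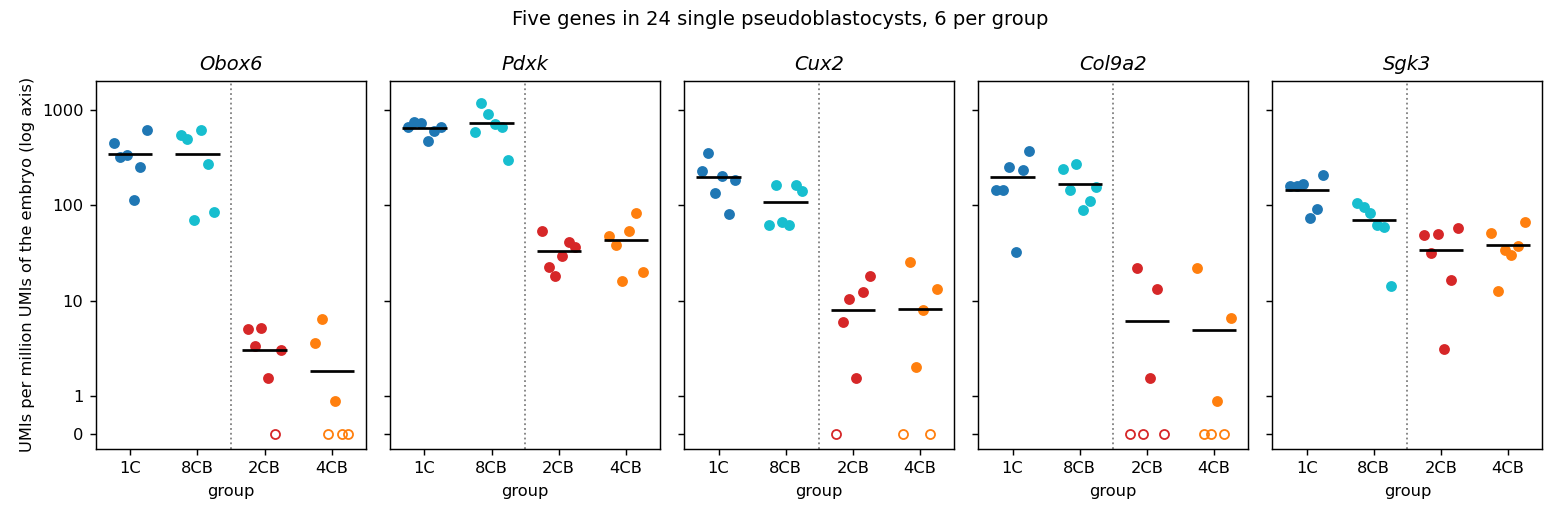
Each point is 1 embryo, its height the UMIs of the gene per 1000000 UMIs of that embryo on a log axis, open circles at the bottom are embryos listed at 0, and black lines are group means. The 12 1C and 8CB embryos, left of the dotted line, sit above all 12 2CB and 4CB embryos for Obox6, Pdxk, Cux2 and Col9a2, whereas the values of Sgk3 overlap.

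Fitted by edgeR over all embryos, the log2 difference of 1C and 8CB minus 2CB and 4CB was 7.37 for Obox6 (SE 0.50), 4.95 for Col9a2 (SE 0.53), 4.26 for Cux2 (SE 0.42), 4.21 for Pdxk (SE 0.26) and 1.59 for Sgk3 (SE 0.32). Leaving out 4CB embryo 1 moved the Col9a2 value to 5.88, the largest move of any member when 1 embryo was left out. Among 5940 tested genes these values ranked 4, 16, 30, 31 and 317 from the highest. In this comparison 24% of tested genes were called higher in 1C and 8CB embryos and 31.3% lower, at an adjusted p below 0.1. Complete separation of the pools in this direction was rarer, at 131 tested genes or 2.21%, and by fitted difference 4 members ranked 2, 5, 11 and 12 among these. These members were selected for this contrast, and nothing is read from their calls.

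The genes next to Obox6, Col9a2, Cux2 and Pdxk in that order averaged at most 11.1 CPM in 2CB and 4CB embryos. Hcrt, which encodes the precursor of the orexin neuropeptides, and Npy, encoding neuropeptide Y, stood on either side of Obox6. Hcrt averaged 70.0 CPM in 1C and 8CB embryos against 0.25 CPM in the others, and Npy 48.5 CPM against a listed 0. Sox9 (55.1 against 2.73 CPM) and Rusc1 (49.0 against 1.12 CPM) flanked Col9a2. Gm11517 (48.0 against 2.03 CPM) and Map7d2 (129 against 11.1 CPM) enclosed the adjacent pair Cux2 and Pdxk. Of these 6 genes, Hcrt and Rusc1 had no overlap between the pools. Sgk3 stood between Ddx3x (728 against 246 CPM) and Nhp2 (483 against 163 CPM), neither of which overlapped between the pools although their differences were as small as that of Sgk3.

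Comparisons within each library pool were not used to select the genes. Whether an 8-cell blastomere and a whole zygote gave embryos with different levels was asked by 8CB minus 1C. Obox6 averaged 346 ± 238 CPM in 8CB and 348 ± 173 CPM in 1C embryos (SD, n = 6 each), a fitted log2 difference of 0.03 with a 95% interval from -0.87 to 0.92. Pdxk averaged 722 ± 295 and 640 ± 98.6 CPM, with a log2 difference of 0.21 (-0.41 to 0.84). These intervals allow changes of either sign. Col9a2 averaged 168 ± 72.4 and 196 ± 116 CPM, with a log2 difference of -0.24 (-1.39 to 0.92).

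Cux2 and Sgk3 had lower means in 8CB than in 1C embryos, but neither passed the test. Cux2 averaged 109 ± 50.7 CPM in 8CB and 197 ± 92.0 CPM in 1C, a log2 difference of -0.86 (-1.83 to 0.10, adjusted p = 0.582 by edgeR). Sgk3 averaged 70.2 ± 33.1 and 143 ± 51.1 CPM, a log2 difference of -0.93 (-1.83 to -0.03, adjusted p = 0.507 by edgeR). The interval of Sgk3 before adjustment lay below 0, but 552 of 5940 genes had an unadjusted p below 0.05 in this comparison. The adjusted p of Obox6, Pdxk and Col9a2 was 0.994, 0.865 and 0.932. No member was called, and neither was any other gene by edgeR (0 of 5940, 0%), whereas DESeq2 called 43 genes, none of them a member.

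Between 4CB and 2CB embryos only Pdxk and Sgk3 could be tested, and neither was called. Sgk3 averaged 38.5 ± 18.2 CPM in 4CB and 34.2 ± 21.2 CPM in 2CB, a log2 difference of 0.17 (-0.79 to 1.13). Pdxk averaged 43.0 ± 24.6 and 33.5 ± 12.9 CPM, a difference of 0.30 (-0.44 to 1.04). The adjusted p was 0.999 for both by edgeR, which called 2 of 5940 genes in this comparison (0.0337%), while 262 had an unadjusted p below 0.05 and DESeq2 called 10. Obox6, Cux2 and Col9a2 passed the filter on low counts through their levels in 1C and 8CB embryos and would not pass it with 2CB and 4CB embryos alone, so that their values are a description. Cux2 averaged 8.11 ± 9.98 CPM in 4CB (16 UMIs) and 8.07 ± 6.87 CPM in 2CB (33 UMIs), a difference of -0.19 (-1.57 to 1.19). The intervals were wider for Obox6 and Col9a2, at -3.03 to 1.29 around -0.87 for Obox6 (3 UMIs in 4CB and 11 in 2CB) and -2.89 to 0.85 around -1.02 for Col9a2 (8 and 48 UMIs). Without 4CB embryo 1 the Col9a2 value was -2.77, and without 2CB embryo 2 it was -0.14. The order of the stages within each pool thus could not be resolved.

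**Figure D2:**
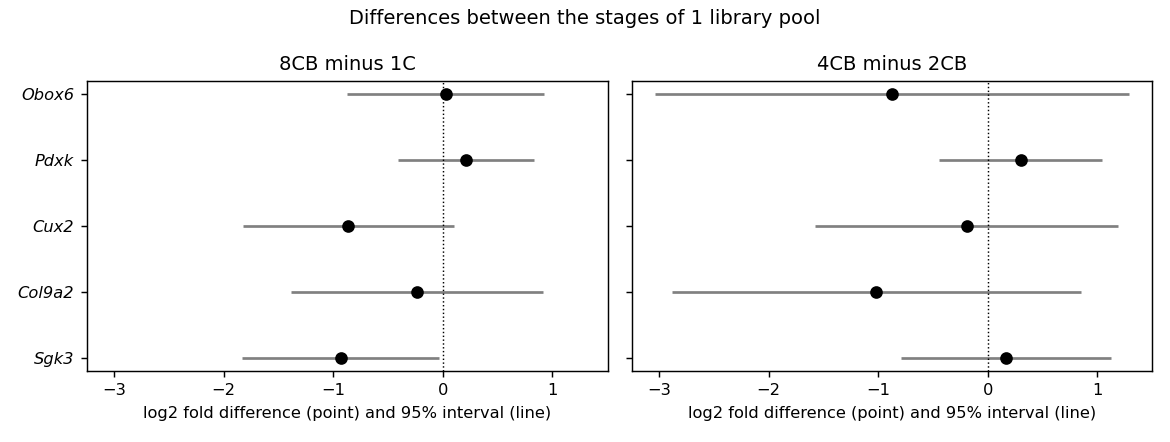
Points are fitted log2 differences of 8CB minus 1C (left) and 4CB minus 2CB (right) embryos for each gene, with lines for 95% intervals before adjustment. All intervals include 0 except that of Sgk3 for 8CB minus 1C, from -1.83 to -0.03, whose adjusted p was 0.507, and those of Obox6, Cux2 and Col9a2 for 4CB minus 2CB are a description without a test.

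The closest relatives of the members were mostly sparse or were not called, with Plpbp as the exception. Of 6 other Obox genes, Obox8 had 36 UMIs in 1C, 4 in 8CB and none in 2CB or 4CB embryos, in 3 embryos in all, and was below the filter on low counts. Obox1, Obox3 and Obox5 had 2, 3 and 3 UMIs over the 24 embryos, and Obox2 and Obox7 none. Cux1, the other CUX gene, averaged 36.5 ± 21.3 CPM in 1C and 8CB and 48.9 ± 16.6 CPM in 2CB and 4CB embryos (log2 difference -0.37, SE 0.29, adjusted p = 0.298 by edgeR). Without 8CB embryo 3 it was called, at -0.58. Col9a1 and Col9a3, which encode the other chains of type IX collagen, had 0 and 2 UMIs over all 24 embryos, so that Col9a2 was the only type IX chain with more than 3 UMIs.

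Among the relatives in kinase and vitamin pathways, Sgk1 was abundant in every embryo group. Its mean was 1077 ± 602 CPM in 1C and 8CB and 1390 ± 452 CPM in 2CB and 4CB embryos (log2 difference -0.33, SE 0.28, adjusted p = 0.345 by edgeR). Sgk2 had 27 UMIs in 5 embryos, with 3 UMIs in 1C, none in 8CB, 13 in 2CB and 11 in 4CB. Plpbp, whose product binds pyridoxal phosphate, was higher in 1C and 8CB embryos by 1.71 on the log2 scale (SE 0.26, adjusted p = 4.98e-06 by edgeR), at 180 ± 62.7 against 56.7 ± 28.5 CPM (SD, n = 12 each).

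The genes of 5 lists around the members were compared between the pools, with the members left out. Over all 58 tested genes of these lists 13 were called higher and 26 lower in 1C and 8CB embryos, beside 24% and 31.3% of all tested genes, and the median over all tested genes was -0.12 on the log2 scale. Of 33 homeobox genes of the early embryo 6 passed the filter, of which 2 were higher and 4 lower (median -1.43). Nanog, a pluripotency factor of the epiblast, was higher by 1.49 (SE 0.38). Cdx2, the trophectoderm factor, was at -2.32 (SE 0.35) and Msx2, a BMP-responsive homeobox gene, at -3.14 (SE 0.59), which moved to -3.95 without 8CB embryo 4. Rhox5, an X-linked homeobox gene, was at -1.51 (SE 0.70), a call that was lost in 12 of 24 fits with 1 embryo left out. Of the CUT homeobox genes 3 of 6 were tested, with 0 higher, 1 lower and a median of -0.37.

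Of 39 genes for vitamin B6 metabolism and pyridoxal phosphate-dependent enzymes 23 were tested, of which 7 were higher and 11 lower in 1C and 8CB embryos, with a median of -0.83. The largest differences were those of Pygb (glycogen phosphorylase, -4.15, SE 0.51), Cbs (cystathionine beta-synthase, -3.04, SE 0.44), Scly (selenocysteine lyase, -2.22, SE 0.48) and Alpl (tissue-nonspecific alkaline phosphatase, -2.15, SE 0.42), all lower where Pdxk was higher. Pygb and Scly had only 13 and 28 UMIs over the 1C and 8CB embryos, and without 8CB embryo 1 their values were -5.35 and -2.94. The 7 genes called higher lay between 0.87 and 2.04.

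Of 29 genes for collagens and partners of type IX collagen 9 were tested, with 3 higher, 2 lower and a median of -0.20. Sox9, a transcription factor of cartilage that activates type IX collagen genes there, was at 4.98 (SE 0.98), with values between 3.83 and 7.34 when single embryos were left out. It was uneven among embryos, with a mean of 55.1 ± 73.6 CPM in 1C and 8CB and 2.73 ± 9.45 CPM in 2CB and 4CB (SD, n = 12 each). P4ha1, a collagen prolyl hydroxylase, was at 1.09 (SE 0.38), Plod2, a lysyl hydroxylase, at -1.06 (SE 0.37) and Col4a1, a basement membrane collagen, at -1.59 (SE 0.43). The call for Plod2 was lost without 4CB embryo 3 (-0.65) and on thinned counts (-0.71).

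Of 30 genes of PI3K, SGK and AKT signalling 17 were tested, of which 1 was higher and 8 were lower, with a median of -0.40. Ndrg1, a substrate of SGK kinases, was at -5.32 (SE 0.50), with 4.61 ± 7.73 CPM in 1C and 8CB and 239 ± 142 CPM in 2CB and 4CB embryos, and at -7.39 without 8CB embryo 2. Nedd4, a ubiquitin ligase, was at -2.16 (SE 0.54) and Pik3cd, a PI3K catalytic subunit, at -1.78 (SE 0.50), or -2.57 without 1C embryo 5. All these calls were made by edgeR at an adjusted p below 0.1, in a comparison that coincides with the library pools.

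**Figure D3:**
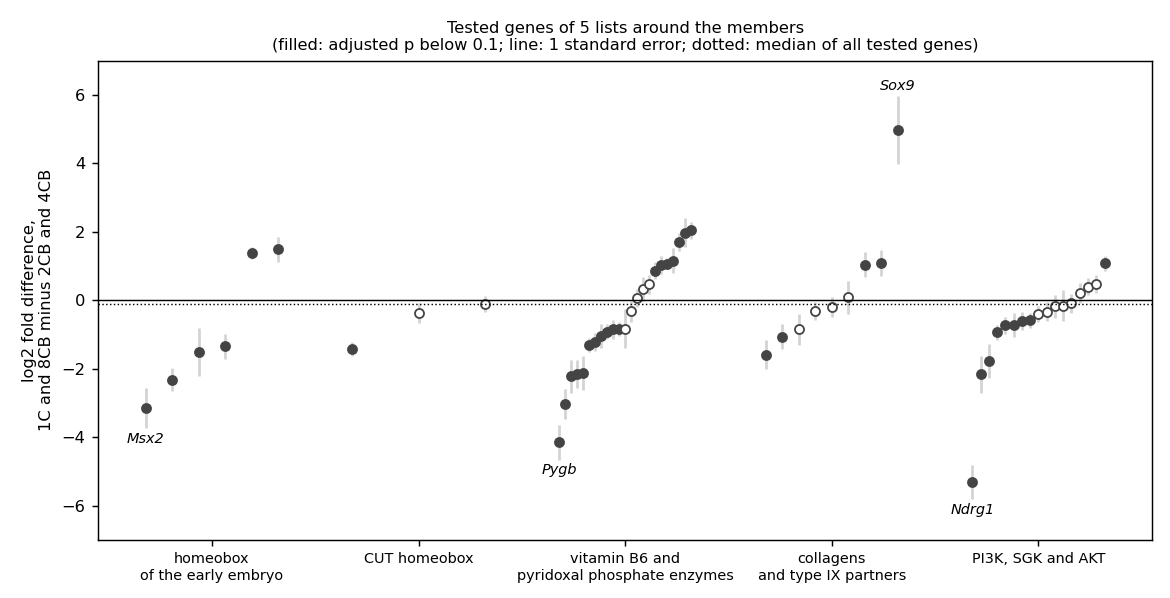
Each circle is a tested gene of the named list, its height the log2 difference of 1C and 8CB minus 2CB and 4CB embryos with 1 standard error, filled where called, and the outermost gene of a list is named where it lies more than 2.5 from 0. Of the 58 genes 26 are called below 0 and 13 above, and Ndrg1 at -5.32 and Sox9 at 4.98 lie farthest from 0.

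Genes within 100 kb of the members were examined in the same comparison. Of 64 such genes 10 were tested, of which 5 were called higher and 2 lower in 1C and 8CB embryos, beside the 24% and 31.3% of all tested genes. All 3 tested neighbours of Col9a2 were called higher. These were Smap2 (ArfGAP, 1.34, SE 0.24), Zmpste24 (the prelamin A protease, 1.52, SE 0.14) and Rlf (a zinc finger protein, 1.38, SE 0.26), all on the strand opposite to Col9a2. Zmpste24 is the nearest, 3.92 kb beyond the end of Col9a2. Near Obox6, Crxos, another homeobox gene of the early embryo, was higher by 1.38 (SE 0.18), Selenow, a selenoprotein, was at -1.06 (SE 0.24), and Nop53 was at -0.02 (SE 0.27, not called). Atxn2, 39.9 kb beyond Cux2, was at 0.61 (SE 0.23), a call that was lost without a filter. Cstb (cystatin B), 9.12 kb beyond Pdxk on the other strand, was at -1.72 (SE 0.35), opposite in sign to Pdxk, and Rrp1 at 0.21 (SE 0.16) was not called. The single tested neighbour of Sgk3, Vcpip1, was at -0.65 (SE 0.41) and was not called, but was called at -0.88 without 1C embryo 1 and at -0.96 without 8CB embryo 1. The genes that overlap a member (4921516A02Rik and Mir6908 with Pdxk, Gm3970 and Gm15637 with Cux2, Gm6195 and Gm22607 with Sgk3) are listed at 0 UMIs in all embryos.

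**Figure D4:**
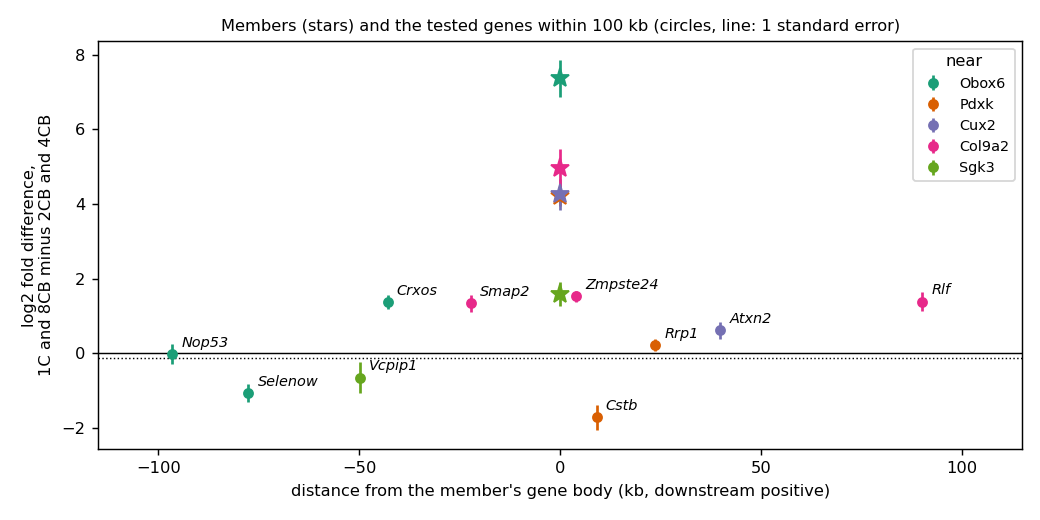
Stars are the 5 members and circles the 10 tested genes within 100 kb, placed by distance from the gene body of the member in kb, with the log2 difference of 1C and 8CB minus 2CB and 4CB embryos and 1 standard error. The neighbours lie between -1.72 and 1.52, below every star, of which that of Sgk3 is the lowest at 1.59. The stars were chosen for high values in this comparison.

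Within each pool the members were compared embryo by embryo. Pearson's r of log2 CPM between pairs of members had a median of 0.28 over the 12 1C and 8CB embryos (10 pairs, from -0.26 to 0.62) and of -0.05 over the 12 2CB and 4CB embryos (from -0.32 to 0.17). In the latter embryos Obox6, Cux2 and Col9a2 had so few UMIs, with 4, 3 and 6 of 12 embryos at 0, that r there says little about whether the members vary together. Each of these medians mixes 2 stages. After the mean of each stage was subtracted, the median over all 24 embryos was 0.09, or 0.02 with a prior count of 0.5. The highest values in 1C and 8CB embryos were those of Sgk3 with Pdxk (0.62) and with Obox6 (0.61), but without 8CB embryo 6, which had the fewest UMIs in total, they were 0.077 and 0.40. That of Pdxk with Obox6 was 0.45, and went from 0.14 without this embryo to 0.79 without 8CB embryo 3. In the same 12 embryos r with the log2 total of UMIs was 0.64 for Pdxk, 0.56 for Col9a2 and for Sgk3, 0.47 for Obox6 and -0.55 for Cux2, and without 8CB embryo 6 it was 0.36, 0.67, 0.18, 0.25 and -0.68 in the same order. For Obox6 it was 0.72 without 8CB embryo 3. These embryos share 1 pool and differ in depth from 70941 to 368348 UMIs, and the part of depth in these values was not tested.

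The tested genes most alike each member over all 24 embryos mainly repeated the division by pool. For Obox6 these were Metap2 (r = 0.96), Dnajb9 (0.95) and Pdxk (0.94), and for Pdxk they were Gemin5 (0.97), Metap2 (0.96) and Gpd1l (0.95). For Cux2 they were Slc25a41, Spns1 and Sox15 (each 0.93), and for Col9a2 they were Snx16, Map7 and Gpd1l (0.93, 0.93 and 0.92). Sgk3 was most alike Csnk1e (0.84), Actn2 (0.82) and 1700021F05Rik (0.82). After the mean of each stage was subtracted, r fell to between 0.22 and 0.66 for the genes of Obox6, Pdxk, Cux2 and Col9a2, and was 0.71, 0.63 and 0.64 for those of Sgk3. All these genes were picked for the highest r in the same 24 embryos. That choice can raise the r that remains, so nothing is read from it.

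A principal component analysis of the 500 most variable genes, without the members, placed the pools apart on its first component (PC1, 62.4% of the variance). Scores were from -40.6 to -15.9 in 1C and 8CB embryos and from 27.0 to 37.8 in 2CB and 4CB embryos. Among the 6 1C embryos, those farthest from the other pool had the higher levels of most members (r of PC1 with log2 CPM -0.92 for Sgk3, -0.79 for Pdxk, -0.78 for Obox6, -0.70 for Cux2 and -0.43 for Col9a2). Without 1C embryo 5 that of Cux2 was -0.35, and without 1C embryo 4 that of Col9a2 was 0.087. In the 6 8CB embryos the same r was -0.76 for Cux2 but 0.84 for Col9a2, 0.55 for Sgk3, 0.16 for Pdxk and 0.01 for Obox6, and those of Pdxk and Obox6 became -0.36 without 8CB embryo 6 and -0.47 without 8CB embryo 1. Cux2 thus had a negative r in both stages, and the differences between the stages were not tested. Over the 12 1C and 8CB embryos together r was -0.56 for Cux2, -0.37 for Obox6, -0.19 for Col9a2 and Sgk3 and -0.18 for Pdxk. PC1 follows the division of the pools by which the members were chosen, so nothing is read from these r. The 1C embryo with the lowest level of Obox6, Pdxk, Col9a2 and Sgk3 was embryo 4, at a PC1 score of -19.9.

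**Figure D5:**
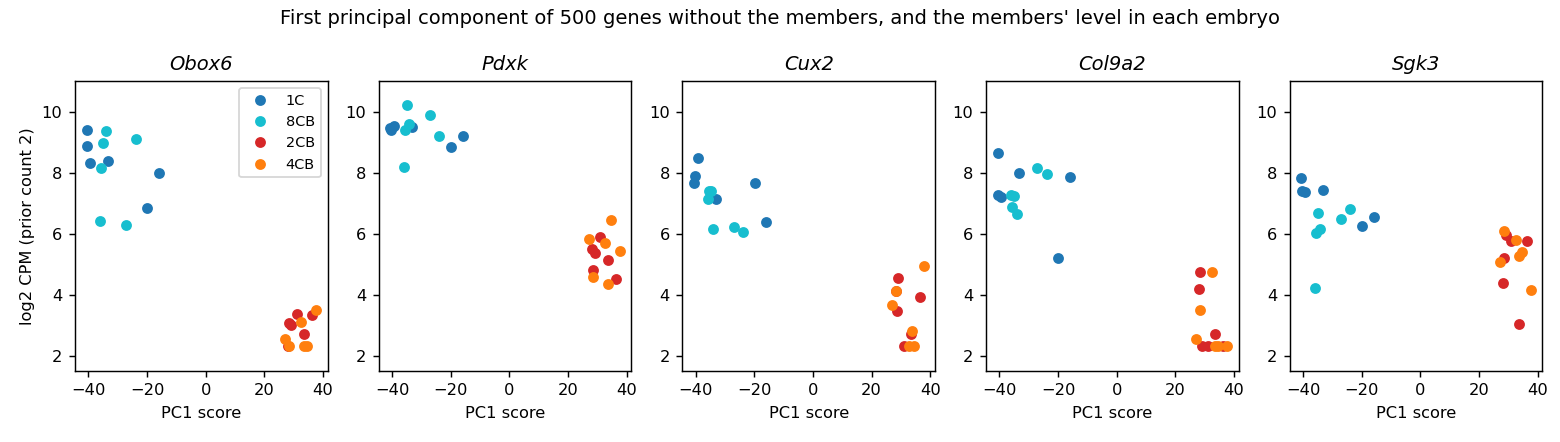
Each point is 1 embryo, placed by its PC1 score from 500 genes that do not include the members and by the log2 CPM (prior count 2) of the named gene. The 1C and 8CB embryos have negative scores (-40.6 to -15.9) and the 2CB and 4CB embryos positive scores (27.0 to 37.8), with member levels apart for all genes but Sgk3.

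The same 12 barcodes of 6 bases were used in both pools, so each 2CB or 4CB embryo shared its barcode with a 1C or 8CB embryo. The UMIs of a member in the embryos of a barcode pair had an r of 0.01 for Obox6, -0.06 for Pdxk, 0.26 for Cux2, -0.13 for Col9a2 and 0.13 for Sgk3 (12 pairs). The 1C embryo with 215 Obox6 UMIs was paired with a 2CB embryo with 1 UMI, and the 2CB embryo with the most, 5 UMIs, with a 1C embryo with 40. For the 131 genes with separated pools, the share of UMIs in the 2CB and 4CB pool had a median of 34.0% and a range from 0.444% to 55.5%. It was 1.21%, 9.99%, 11.2% and 8.33% for Obox6, Pdxk, Cux2 and Col9a2. Whether reads crossed between the pools was not tested.

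The total of UMIs per embryo ranged from 70941 to 368348 in the 1C and 8CB pool and from 132725 to 1507471 in the 2CB and 4CB pool, and 6905 to 14880 genes were detected per embryo. Thinned to 70941 UMIs per embryo, the 1C and 8CB embryos kept 281 Obox6 UMIs and the 2CB and 4CB embryos 0, which allows up to 3. Pdxk had 539 against 41, Cux2 139 against 12, Col9a2 155 against 4 and Sgk3 97 against 23 UMIs. Markers of cell lineages were summed as well. The summed level of 8 trophectoderm markers was 570 to 1139 CPM in 1C and 8CB embryos and 2502 to 5280 CPM in 2CB and 4CB embryos. That of 6 epiblast markers was 151 to 1427 against 217 to 803 CPM, and that of 6 primitive endoderm markers 631 to 1100 against 776 to 1590 CPM, with 1 of these 6 genes at 0 in 1C and 8CB embryos. Of the epiblast markers Pou5f1, which encodes OCT4, had only 13 and 20 UMIs in the respective pools. The paper's staining showed OCT4 protein in the ICM of most 4CB and 8CB embryos with a cavity. Whether the counts missed Pou5f1 transcripts was not tested, so its low count is not read as absence. The 37 mitochondrial genes had 0 UMIs in all embryos. The 7 oocyte markers summed to 12.1 to 103 CPM in 1C and 8CB and 0 to 19.1 CPM in 2CB and 4CB embryos, 135 and 68 UMIs in all, with 2 of the 7 at 0 in the latter pool. Of 6 cumulus and granulosa markers 5 (Foxl2, Amh, Fshr, Cyp19a1 and Has2) were at 0 in every embryo. The part of these cell types in the levels of the members was not tested.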

How the data were processed

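The 24 pseudoblastocysts were sequenced by CEL-Seq2 on an Illumina HiSeq in 2 library pools, with a separate barcode for each embryo of a pool. The authors aligned reads to GRCm38 with HISAT2 (2.2.6) and counted them with HTSeq (0.6.1) after building a consensus read per UMI. The deposited values are UMI counts, as whole numbers before normalization, and whether they are the direct output of HTSeq is not known. The annotation release and strand setting are not given in the sources used here. The largest count, 53029, exceeds the 4096 sequences that a UMI of 6 bases can have, so that counting intervals may be too narrow. The table also holds 24 columns of morulae, which were not used. The groups of embryos were taken from the column names and the pool titles.

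Counts were tested with edgeR 4.0.16 (quasi-likelihood F test, TMM with factors from 0.936 to 1.05, filterByExpr by stage, 1 mean per stage over all 24 embryos, Benjamini-Hochberg adjustment over 5940 genes, called below 0.1, the false discovery rate of the study). Standard errors were derived from the F statistic. Log2 CPM used a prior count of 2. The test was also run on simulated counts, with results that are not reported here. The promoter windows and transcripts came from RefSeq and GENCODE M21. Alternatives were DESeq2 1.42.0, its size factors in edgeR, other filters, thinning, an adjusted p below 0.05, a replicate block and each embryo left out in turn. The 5 members, the gene lists and the tests were chosen with earlier results of these data known. Genes named are the members, their closest relatives, up to 4 called genes with the largest difference in each list, the 3 genes most alike each member, those ranked next to the members, and overlapping or tested neighbouring genes. Some genes that this rule covers are not reported here. The labels do not say that the embryos came from separate cultures, so p-values measure the spread between these embryos only.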

Additional observations from a re-analysis of the deposited data

Results flagged for a closer look

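Col9a2 in 4CB embryo 1 stood apart among the 4CB embryos, but these had only 8 Col9a2 UMIs in all and 3 of 6 embryos at 0, so that nothing is read from it. Its level was 21.7 CPM, from 6 UMIs, and the next highest 4CB embryo was at 6.59 CPM, a gap of 0.697 of the whole range of the 6 embryos and above the critical value of Dixon's test. Of 20 groups tested, 5 genes in 4 stages, this was the only one past that value, and chance passes about 1 in 20.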

How the results depend on the processing

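Nothing is read from the differences of the members between the pools under other settings, since these differences chose the members. No member for 8CB against 1C, and neither Pdxk nor Sgk3 for 4CB against 2CB, was called under any alternative run that kept it in the test; Obox6, Cux2 and Col9a2 did not pass the filter with 2CB and 4CB embryos alone. The sign of 8CB minus 1C, from 0.03 for Obox6, became -0.18 on thinned counts, -0.15 on thinned counts of the genes of the full-depth filter (an alternative chosen after seeing the data) and -0.13 with the replicate block. For Col9a2 it became 0.12 and 0.14 on the same thinned counts, and 4CB minus 2CB became 1.11 and 1.07; Obox6 had no UMI left there for the latter. With an embryo left out, 8CB minus 1C was between -0.24 and 0.33 for Obox6 and between -0.45 and 0.083 for Col9a2, and 4CB minus 2CB between -0.66 and 0.092 for Cux2 and between -0.069 and 0.39 for Sgk3. Nop53 became 0.0238 with at least 5 UMIs in 12 embryos and 0.16 on thinned counts of the genes of the full-depth filter. With an embryo left out it was between -0.14 and 0.10.

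For 8CB against 1C, 0 genes were called, but 43 by DESeq2, 104 without a filter and 1 on either thinned table, and 0 to 3 with an embryo left out. For 4CB against 2CB, 2 were called, but 10 by DESeq2, 48 without a filter, 0 and 4 on the thinned tables, 1 with the replicate block, and 1 to 6 with an embryo left out. Between the pools, 1424 genes were higher and 1861 lower in 1C and 8CB, of 5940 tested. Without a filter they were 2227 and 3298, and all counts without a filter are out of 23171 tested genes. On thinned counts they were 586 and 602, where only 2026 genes passed the filter. On thinned counts of the genes of the full-depth filter they were 1128 and 1471. The lists had 39 calls, 13 higher and 26 lower, against 53, 21 higher and 32 lower, without a filter. On thinned counts they had 16 calls, 6 higher and 10 lower. On thinned counts of the genes of the full-depth filter they had 36, 13 higher and 23 lower. Within 20 kb of the members only 2 neighbours were tested, and both were called, 1 higher and 1 lower. Within 100 kb 7 of the 10 tested were called. With the replicate block Vcpip1 was called, at -0.92. Embryos with the same number did not deviate together (mean r -0.02 over 36 pairs from different stages), so they were treated as unpaired. Obox6, Cux2 and Col9a2 had only 14, 49 and 56 UMIs over the 2CB and 4CB embryos, which limits what their values there can show. The cause of these changes was not tested.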
